A study of Mus musculus with 6 samples.

Results

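The genes described here were the components of the Wnt signalling pathway in mouse embryonic stem (ES) cells and extraembryonic endoderm (XEN) cells. They were chosen by symbol: every Wnt ligand, every Frizzled (Fzd) receptor, every Sfrp and Dkk antagonist, the co-receptors Lrp5 and Lrp6, and a list of export factors, intracellular components, nuclear factors and target genes. The rule found 60 genes among the 17710 named in any of the deposited tables. Their roles gave 19 ligands, 2 factors of ligand lipidation and export, 12 receptors and co-receptors, 4 genes of receptor turnover, 8 secreted antagonists, 5 genes of the cytoplasmic core, 4 TCF/LEF factors and 6 feedback or target genes.

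The study sequenced bulk RNA from 3 ES and 3 XEN libraries, lettered A to C in each group. The ES cells were of strain 129/Ola and grew on gelatin in N2B27-2iLIF, a serum-free medium whose 2i component ordinarily holds an inhibitor of the kinase GSK3 and one of the kinase MEK, beside the cytokine LIF. The XEN cells were of strain ICR and grew in RPMI1640 with 15% fetal bovine serum and additions abbreviated Glut and BME in the labels. Both were kept without feeder cells. Cell type, strain and medium therefore changed together, and their parts in any difference cannot be told apart. Whether libraries of 1 group are separate cultures is not stated in the labels, and p-values here measure only the spread between the libraries at hand, which may be technical.

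Wnt proteins are secreted ligands that carry a lipid attached by Porcn and leave the cell with the carrier Wls. They bind a Fzd receptor with Lrp5 or Lrp6, which blocks a complex of Axin, Apc and GSK3 that otherwise marks β-catenin for destruction, and stabilised β-catenin then acts with TCF/LEF factors on target genes such as Axin2, Sp5 and Notum. An inhibitor of GSK3 acts below the receptors and stabilises β-catenin without a ligand. In the early embryo the pathway is known for its part in keeping naive pluripotency in culture and in forming the primitive streak, and XEN cells are the cultured counterpart of the primitive endoderm lineage that makes the yolk sac endoderm.

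Libraries held 20675311 to 22375875 expected read counts. Levels are given as CPM, the read count per library size on the usual scale after TMM scaling, and library sizes after scaling were 20139740 to 23006291. A floor of 3 counts in a library was 0.130 to 0.149 CPM. All 8 ES markers looked at reached 1 CPM in every ES library and 2 of the 8 did in every XEN library, with summed levels of 5478 to 5612 CPM in ES and 189 to 212 CPM in XEN. All 8 XEN markers reached 1 CPM in every XEN library and 3 of the 8 did in every ES library. Their sums were 105 to 118 CPM in ES and 10070.0 to 11960.0 CPM in XEN. Klf4 made up most of the ES marker sum in XEN (mean 171 CPM), and Lama1 most of the XEN marker sum in ES (mean 106 CPM). Of 8 fibroblast markers, 6 were listed, and their sums were 2.90 to 3.43 CPM in ES and 0.447 to 0.699 CPM in XEN. Thy1 made up most of the ES sum, at 2.58 to 3.04 CPM in ES and 0.149 to 0.188 CPM in XEN. Col1a1, Col1a2 and Col3a1 were each at or below 0.233 CPM in every library. Summed visceral endoderm markers (5 of 6 listed) were at 6.26 to 6.78 CPM in ES and 45.5 to 56.6 CPM in XEN. Trophoblast markers (7 of 7) summed to 83.8 to 87.2 CPM in ES and 9.09 to 10.3 CPM in XEN, and neural ectoderm markers (5 of 5) to 86.3 to 91.9 and 13.9 to 14.4 CPM. The ES sums rested mostly on Tfap2c and Eomes (means 58.7 and 22.2 CPM) and on Tubb3 (71.0 CPM). Of the trophoblast list, Tfap2c, Eomes, Krt7 and Ascl2 were lower in XEN, Cdx2 and Gata3 were higher, and Elf5 was not tested. The part of these other cell types in the results was not tested.

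Across all genes, 12044 of 13581 tested genes (88.7%) differed between XEN and ES cells at an adjusted p under 0.05 (edgeR quasi-likelihood test, Benjamini-Hochberg adjustment over all tested genes), 42.0% being higher and 46.7% lower in XEN. Of the 60 Wnt pathway genes, 46 had enough counts to be tested and 14 had not. The 14 were 11 ligands, Dkk2, Sfrp5 and Lgr5. Of the 46, 21 were higher in XEN, 22 were lower and 3 did not pass (Axin1, Nkd2 and Fzd3), a share of 93.5% called beside the 88.7% of all genes. In the stricter test against a 2-fold difference (edgeR glmTreat), 33 of the 46 passed (71.7%), 17 higher and 16 lower in XEN, beside 42.7% of all tested genes (19.3% higher and 23.4% lower). A gene high in 1 group only passes the count filter through that group, so these shares describe the tested members and not all 60. The median log2 fold change of the tested members, XEN over ES, was 0.05 and that of all tested genes was -0.07. The median size without sign was 3.20 for the members and 0.92 for all tested genes, and the members' medians were the same with genes at 0 counts set to their bound. With 88.7% of all tested genes called, groups that do not overlap are not particular to the members named below. The share of all genes with such groups was not counted. In bulk RNA, fewer cells of a kind and less RNA per cell cannot be told apart.

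**Figure D1:**
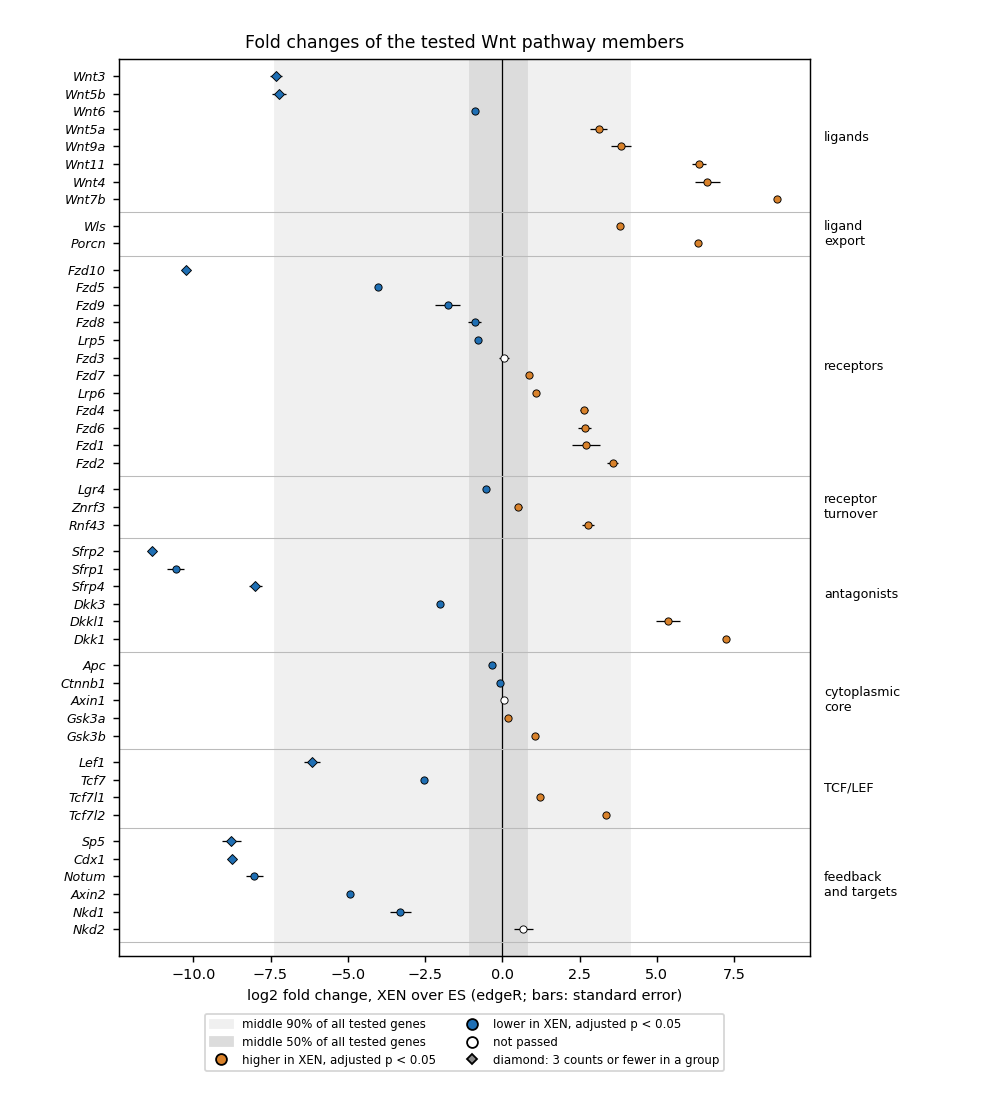
The log2 fold change, XEN over ES, of each of the 46 tested Wnt pathway genes is plotted by role, with the standard error as a bar and grey bands for the middle 50% and 90% of all tested genes. The bars hold the spread between libraries only and can be too short at few counts. Sfrp2, Sfrp1, Fzd10, Sp5, Cdx1, Notum and Sfrp4 lie left of the 90% band, which begins at -7.35, Wnt7b, Dkk1, Wnt4, Wnt11, Porcn and Dkkl1 lie right of its end at 4.12, and the 5 genes of the cytoplasmic core lie between -0.34 and 1.07. Diamonds mark genes with 3 counts or fewer in a group, whose fitted value depends on the prior count. Cdx1, bounded at 52.0-fold, and Sfrp4, with an interval from 62.0-fold, lie left of the band by that fitted value only.

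Ligand expression was low in ES cells and high in XEN cells, where it rested on Wnt11 and Wnt7b. Only 2 of the 19 ligands reached 1 CPM in every ES library (Wnt11 and Wnt5b), and 5 did in every XEN library (Wnt11, Wnt7b, Wnt4, Wnt9a and Wnt5a). Of the 8 ligands tested, 5 were higher in XEN, 3 were lower, and all but Wnt6 also passed the test against 2-fold. Of all tested genes, 88.7% were called and 42.7% passed 2-fold. A ligand high in 1 group only passes the count filter through that group, so these counts describe the tested ligands and not all 19.

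Wnt11, a ligand known mainly for signalling without β-catenin, stood at 2.21, 1.31 and 1.87 CPM in ES libraries A, B and C and at 144, 157 and 143 CPM in XEN libraries A, B and C. Every XEN library was far above every ES library, and the log2 fold change was 6.37 ± 0.22 (SE; edgeR adjusted p = 1.23e-20). Wnt7b, a ligand able to activate β-catenin signalling, stood at 0.184, 0.174 and 0.174 CPM in ES and at 80.2, 86.8 and 91.9 CPM in XEN. Its ES values were near the floor, the groups did not overlap, and the log2 fold change of 8.88 ± 0.06 (edgeR adjusted p = 1.26e-23) was the highest of the tested members. All SE values here reflect the spread between libraries only. They can be smaller than the counting error where counts are few, as with the 12 ES counts of Wnt7b. Wnt4, known for its part in kidney tubule formation, stood at 0.138, 0.0872 and 0 CPM in ES and at 8.70, 8.25 and 6.65 CPM in XEN. Its ES level came from 5 counts over the 3 libraries, against 496 counts in XEN (log2 fold change 6.63 ± 0.41, edgeR adjusted p = 3.06e-14). Wnt9a, known from joint formation, stood at 0.369, 0.218 and 0.565 CPM in ES and at 4.70, 6.20 and 5.81 CPM in XEN. The groups lay apart with a log2 fold change of 3.84 ± 0.33 (edgeR adjusted p = 3.18e-12).

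The ligands lower in XEN were all scarce in ES cells too. Wnt5b, a close relative of Wnt5a, stood at 2.77, 3.57 and 3.39 CPM in ES and had 1 count over the 3 XEN libraries. The 220 ES counts made it 204-fold higher in ES, with a 95% exact counting interval of 36.3 to 8113. Wnt3, needed in the embryo to form the primitive streak, stood at 1.2, 0.785 and 0.782 CPM in ES and had no count in any XEN library. Its 62 ES counts made it at least 19.2-fold lower in XEN, taking 3 counts over the XEN group as the floor. Wnt6 stood at 0.830 to 0.872 CPM in ES and 0.447 to 0.470 CPM in XEN, without overlap, and was lower in XEN by the plain test only (log2 fold change -0.89 ± 0.03, edgeR adjusted p = 0.0104, and 0.736 against 2-fold), a call that was lost with DESeq2 (adjusted p = 0.0727). Wnt5a, a ligand known for signalling without β-catenin, went the other way, from 0.0869 to 0.230 CPM in ES to 1.09 to 1.54 CPM in XEN (log2 fold change 3.11 ± 0.28). The pair Wnt5a and Wnt5b thus differed between the groups in opposite directions, both at low levels. The 11 untested ligands, Wnt1, Wnt2, Wnt2b, Wnt3a, Wnt7a, Wnt8a, Wnt8b, Wnt9b, Wnt10a, Wnt10b and Wnt16, had at most 20 counts over the 3 libraries of a group. Without the count filter, edgeR called Wnt10a (8 counts in ES, 0 in XEN, adjusted p = 0.014) and Wnt16 (7 and 0, 0.0212) lower in XEN and Wnt9b (0 and 8, 0.00843) higher, and the other 8 did not pass.

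Both genes of ligand release were higher in XEN cells, beside 42.0% of all tested genes. Porcn, the enzyme that attaches the lipid to Wnt proteins, stood at 2.35, 2.14 and 2.35 CPM in ES and at 179, 181 and 186 CPM in XEN. The groups were far apart and tight (log2 fold change 6.32 ± 0.05, edgeR adjusted p = 1.05e-25). Wls, the carrier that brings lipidated Wnt to the cell surface, stood at 8.76, 8.63 and 8.56 CPM in ES and at 123, 120.5 and 115 CPM in XEN. It was 13.8-fold higher in XEN (log2 fold change 3.79 ± 0.03, edgeR adjusted p = 2.03e-23), again without overlap.

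**Figure D2:**
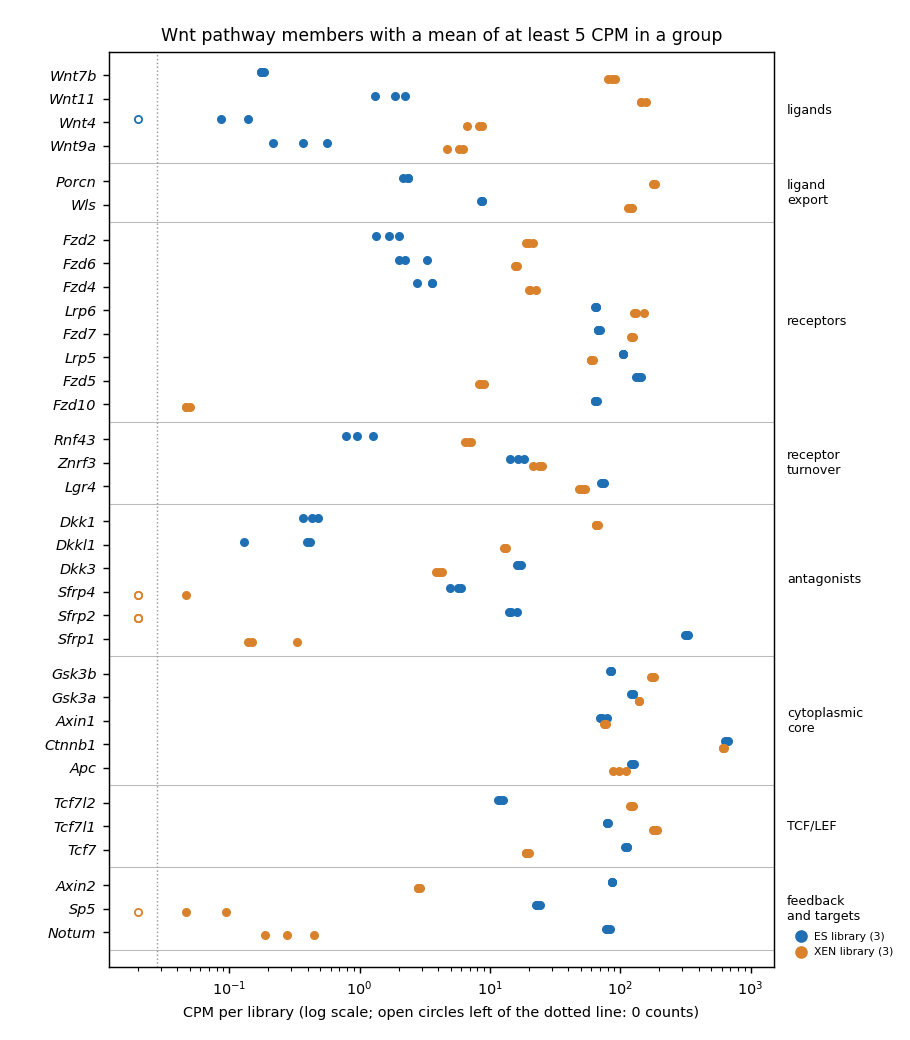
CPM on a log axis is plotted for each of the 6 libraries and each of the 34 Wnt pathway genes whose mean reached 5 CPM in ES or XEN, ES in blue and XEN in orange, grouped by role, with open circles for 0 counts. The libraries of a group lie close together, and the groups are apart for every gene shown except Axin1, whose ES values of 70.5 to 78.9 CPM span the XEN values of 74.7 to 77.6 CPM. The share of all genes whose groups lie apart was not counted, but 88.7% of all tested genes were called, so separation is not particular to these genes.

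The Fzd receptors did not share a direction. Of 10 Fzd genes, 5 were higher in XEN, 4 were lower and Fzd3 did not pass, beside 42.0% higher and 46.7% lower among all tested genes. Fzd10 stood at 63.6, 63.9 and 66.1 CPM in ES and had 1 count in each XEN library. With 4368 counts against 3, it was 1353-fold higher in ES (95% exact counting interval 463 to 6565). Fzd5, a receptor needed in the mouse for yolk sac vessels, stood at 132, 145 and 140.3 CPM in ES and at 8.55, 8.25 and 8.94 CPM in XEN. It was 16.2-fold lower in XEN, with no overlap (log2 fold change -4.02 ± 0.05, edgeR adjusted p = 2.12e-23). Fzd7, a receptor known for its role in pluripotent cells, stood at 67.5, 67.6 and 70.3 CPM in ES and at 121, 124 and 125 CPM in XEN. The groups did not overlap and the log2 fold change of 0.85 ± 0.02 passed the plain test (edgeR adjusted p = 4.02e-14) but not the one against 2-fold.

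A second set of receptors was scarce in ES cells and higher in XEN cells. Fzd2 stood at 1.34, 2.01 and 1.70 CPM in ES and at 18.8, 21.5 and 19.9 CPM in XEN (log2 fold change 3.57 ± 0.17, edgeR adjusted p = 9.34e-17). Fzd4, which also serves as receptor of the non-Wnt ligand Norrin, stood at 2.77, 3.62 and 3.61 CPM in ES and at 22.5, 20.2 and 20.0 CPM in XEN (2.64 ± 0.14, 1.32e-15). Fzd6, known from planar polarity of skin and hair, stood at 3.27, 2.01 and 2.22 CPM in ES and at 15.5, 16.1 and 15.9 CPM in XEN (2.67 ± 0.21, 6.37e-14). In all of these genes each XEN library was above each ES library, and 42.0% of all tested genes were called higher in XEN. Among the Fzd genes below 5 CPM, Fzd1 was higher in XEN, at 0.218 to 0.695 CPM in ES and 2.89 to 3.97 CPM in XEN. Fzd8 and Fzd9 were lower in XEN, from 4.05 to 4.39 CPM to 1.65 to 2.61 CPM and from 0.956 to 1.39 CPM to 0.186 to 0.564 CPM. Fzd3 overlapped, at 3.36 to 4.01 CPM in ES and 3.43 to 4.72 CPM in XEN (edgeR adjusted p = 0.712).

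The paired co-receptors differed in opposite directions. Lrp5 stood at 105 CPM in each ES library and at 59.2, 59.4 and 61.7 CPM in XEN (log2 fold change -0.80 ± 0.02, edgeR adjusted p = 1.05e-13). Lrp6 stood at 64.7, 64.8 and 64.2 CPM in ES and at 152, 127 and 131 CPM in XEN (1.08 ± 0.08, 3.39e-11). Neither pair of groups overlapped, and neither gene passed the test against 2-fold (Lrp6 edgeR adjusted p = 0.0647), though Lrp6 did without XEN library B (0.00758) or C (0.0369) and with no count filter (0.0316).

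The genes of receptor turnover were higher in XEN for the ligases and lower for the tested R-spondin receptor. Among all tested genes 42.0% were higher, 46.7% were lower and 42.7% passed 2-fold. Rnf43, a membrane ubiquitin ligase that removes Fzd receptors from the surface and is itself a Wnt target in the gut, stood at 0.784, 0.959 and 1.26 CPM in ES and at 7.19, 6.48 and 6.90 CPM in XEN (log2 fold change 2.76 ± 0.19, edgeR adjusted p = 2.74e-12). Znrf3, the related ligase, stood at 14.3, 16.4 and 18.4 CPM in ES and at 25.2, 21.6 and 23.7 CPM in XEN (0.52 ± 0.12, 1.89e-05). The groups were apart in both ligases, though only Rnf43 passed the test against 2-fold. Lgr4, a receptor for R-spondins that holds the ligases off, stood at 71.2, 75.5 and 74.1 CPM in ES and at 53.7, 48.4 and 50.9 CPM in XEN (-0.53 ± 0.05, 1.27e-09). Lgr5, its relative and a marker of intestinal stem cells, had 1 count in all ES libraries together and 2 in those of XEN.

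The secreted antagonists did not share a direction. Of those tested, 3 of 3 tested Sfrp genes were lower in XEN, and of 3 tested Dkk genes 2 were higher and 1 was lower. Among all tested genes 42.0% were higher and 46.7% lower. Sfrp proteins bind Wnt ligands outside the cell. Sfrp1 stood at 314, 326 and 331 CPM in ES and at 0.329, 0.140 and 0.149 CPM in XEN. Its XEN values, from 13 counts in all, were low (log2 fold change -10.57 ± 0.28, edgeR adjusted p = 1.38e-26). Sfrp2 stood at 14, 16.1 and 14.4 CPM in ES and had no count in any XEN library, at least 312-fold lower against the floor of 3 counts over the group. Sfrp4 stood at 5.99, 4.97 and 5.65 CPM in ES and had 1 count over the XEN libraries, a ratio of 348 (95% exact counting interval 62.0 to 13766). Sfrp5 was not tested, with 16 counts in ES and 7 in XEN.

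Dkk1, which blocks Lrp5 and Lrp6, stood at 0.369, 0.479 and 0.435 CPM in ES and at 65.2, 65.1 and 67.5 CPM in XEN. It was 152-fold higher in XEN without overlap (log2 fold change 7.25 ± 0.09, edgeR adjusted p = 1.76e-23). Dkkl1, a relative of the Dkk proteins known from developing sperm, stood at 0.415, 0.392 and 0.130 CPM in ES and at 13.0, 13.3 and 12.9 CPM in XEN (5.37 ± 0.39, 1.71e-16). Dkk3, a divergent member that does not act on Lrp6 as Dkk1 does, went the other way, at 16, 17.4 and 16.3 CPM in ES and 4.04, 4.29 and 3.87 CPM in XEN (-2.03 ± 0.06, 3.64e-14). Dkk2, with 0 counts in ES and 7 in XEN, was not tested, and passed as higher in XEN without the count filter (edgeR adjusted p = 0.0145).

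In the cytoplasmic core the log2 fold changes ran from -0.34 to 1.07. Ctnnb1, which encodes β-catenin, stood at 663, 666 and 634 CPM in ES and at 627, 610.2 and 617 CPM in XEN. The groups did not overlap, the log2 fold change was -0.08 ± 0.03, and its edgeR adjusted p of 0.0477 was close to the threshold. That call was lost without ES library A (0.157) or B (0.143) and without XEN library B (0.124) or C (0.0984), with the replicate letter as a block (0.0669) and with no count filter (0.1). Apc, the scaffold of the destruction complex, stood at 126, 122 and 127 CPM in ES and at 111, 87.8 and 97.9 CPM in XEN (log2 fold change -0.34 ± 0.10, edgeR adjusted p = 0.00147). Axin1, the limiting scaffold, stood at 70.5, 71.9 and 78.9 CPM in ES and at 75.9, 74.7 and 77.6 CPM in XEN, so that the groups overlapped (0.04 ± 0.05, 0.392), and the sign of this difference turned under other scalings.

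The GSK3 kinases were both higher in XEN by this scaling. Gsk3a stood at 121, 124 and 125 CPM in ES and at 139.5, 138 and 139.9 CPM in XEN (log2 fold change 0.17 ± 0.02, edgeR adjusted p = 0.00033), a call that was lost with upper-quartile scaling (0.528) or with no composition scaling (0.337). Gsk3b stood at 83.1, 84.4 and 85.3 CPM in ES and at 182, 171 and 177 CPM in XEN (1.07 ± 0.03, 4.07e-16). Gsk3b was the only gene of the core past the test against 2-fold (edgeR adjusted p = 0.0364). That 2-fold call was lost with upper-quartile or no composition scaling (log2 fold change 0.92 and 0.93), with RLE scaling (adjusted p = 0.0568), with a mean of at least 1 CPM required (0.0877), and without ES library A (0.098), B (0.0635) or C (0.0558) or XEN library A (0.0942). Transcript levels give no measure of kinase activity, which the inhibitor in the ES medium acts on.

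The TCF/LEF factors, which bring β-catenin to DNA, were reordered. Tcf7, mostly an activator of targets, stood at 113, 108 and 112 CPM in ES and at 19.1, 19.9 and 19.1 CPM in XEN (log2 fold change -2.52 ± 0.03, edgeR adjusted p = 2.2e-21). Tcf7l1, known in ES cells as a repressor of pluripotency genes, stood at 78.8, 80.9 and 78.8 CPM in ES and at 183, 178 and 191 CPM in XEN (1.21 ± 0.03, 6.54e-17). Tcf7l2, a main factor of the intestine, stood at 11.9, 12.7 and 11.5 CPM in ES and at 122, 118 and 125 CPM in XEN (3.34 ± 0.05, 1.09e-22). In Tcf7, Tcf7l1 and Tcf7l2 the groups did not overlap. Each passed the test against 2-fold, as did 42.7% of all tested genes, Tcf7l1 not with upper-quartile scaling (edgeR adjusted p = 0.0505). Lef1 was scarce, at 1.89, 1.18 and 1.56 CPM in ES with 1 count over the XEN libraries, a ratio of 96.7 (95% exact counting interval 17.0 to 3854).

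Of the 6 feedback and target genes, 5 were lower in XEN, all of these past 2-fold, and Nkd2 did not pass. Of all tested genes, 46.7% were lower and 23.4% were lower past 2-fold. The class was drawn by role and leaves out targets counted under other roles. One such gene is Rnf43, a Wnt target in the gut counted under receptor turnover, which was higher in XEN. Of 15 tested targets outside the rule, 9 were higher in XEN and 6 were lower. Axin2, a target in nearly every tissue and a scaffold that feeds back on β-catenin, stood at 86.0, 86.1 and 86.3 CPM in ES and at 2.91, 2.80 and 2.83 CPM in XEN. The libraries of each group were nearly equal and the gene was 30.2-fold lower in XEN (log2 fold change -4.92 ± 0.02, edgeR adjusted p = 1.01e-23). Notum, an enzyme that removes the lipid from secreted Wnt, stood at 83.8, 78.6 and 78.0 CPM in ES and at 0.188, 0.280 and 0.447 CPM in XEN (-8.02 ± 0.28, 2.3e-23). Sp5, a zinc-finger factor induced by Wnt in ES cells and the streak, stood at 24.4, 22.6 and 23.0 CPM in ES and at 0.094, 0.0466 and 0 CPM in XEN. With 1576 counts against 3 it was 488-fold higher in ES (95% exact counting interval 167 to 2370.2). Cdx1, a homeobox factor of the posterior embryo, stood at 2.81, 2.22 and 2.43 CPM in ES and had no count in XEN, at least 52.0-fold lower.

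The Nkd genes encode inhibitors that bind Dishevelled, and both were near the lower end of detection. Nkd1 stood at 0.915 to 1.11 CPM in ES and 0.047 to 0.186 CPM in XEN (log2 fold change -3.30 ± 0.34, edgeR adjusted p = 9.17e-07). Nkd2 stood at 0.218 to 0.478 CPM in ES and 0.423 to 0.699 CPM in XEN, with overlap (0.68 ± 0.32, 0.106).

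Promoter sequence was examined because target genes are bound by TCF/LEF factors through the core CTTTGAT. The RefSeq promoter table of build GRCm38.p6 held 50 windows of 250 bases before a transcription start for 40 of the 60 genes. CTTTGAT, searched on both strands, occurred in 3 of the 50 windows (6.0%) and in 3.21% of all 32851 windows of the table. The genes with a match were Sp5 and Wnt5b, both lower in XEN, and Wnt11, which was higher. Relative to the transcription start, the match begins at base -104 in Sp5, at -71 of 1 of the 3 listed starts of Wnt5b and, as its reverse complement ATCAAAG, at -51 of 1 of the 2 listed starts of Wnt11. Axin2 is shown beside them as the most widely used target gene, and its window holds no match. The windows are given 5′ to 3′ on the gene's strand, with the match in capitals. The GATA core AGATAA, likewise on both strands, occurred in 5 of the 50 windows (10%) and in 9.99% of all windows. A match of letters is a description and not a bound site.
Sp5, chr2:70474673-70474922, plus strand: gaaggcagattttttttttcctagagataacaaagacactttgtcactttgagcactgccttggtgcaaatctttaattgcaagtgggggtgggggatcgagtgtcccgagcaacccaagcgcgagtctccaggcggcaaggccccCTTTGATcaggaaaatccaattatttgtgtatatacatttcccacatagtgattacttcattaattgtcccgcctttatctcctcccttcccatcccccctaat
Axin2, chr11:108920099-108920348, plus strand: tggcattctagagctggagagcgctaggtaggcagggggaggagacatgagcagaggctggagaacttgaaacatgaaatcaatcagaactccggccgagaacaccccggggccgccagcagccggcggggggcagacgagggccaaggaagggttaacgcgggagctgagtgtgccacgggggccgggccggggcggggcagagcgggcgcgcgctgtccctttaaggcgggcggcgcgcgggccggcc
Wnt5b, chr6:119449387-119449636, minus strand: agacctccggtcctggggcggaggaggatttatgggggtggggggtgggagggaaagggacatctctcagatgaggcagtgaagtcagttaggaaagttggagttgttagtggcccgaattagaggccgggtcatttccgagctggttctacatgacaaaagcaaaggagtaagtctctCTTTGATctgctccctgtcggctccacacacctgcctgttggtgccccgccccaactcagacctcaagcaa
Wnt11, chr7:98834862-98835111, plus strand: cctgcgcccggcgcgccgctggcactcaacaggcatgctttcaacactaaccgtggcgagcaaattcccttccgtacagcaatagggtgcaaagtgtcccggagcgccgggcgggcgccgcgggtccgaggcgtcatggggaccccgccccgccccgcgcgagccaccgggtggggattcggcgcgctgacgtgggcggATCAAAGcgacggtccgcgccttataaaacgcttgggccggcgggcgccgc

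Levels of different genes were compared on the authors' FPKM scale, which divides by transcript length. In ES cells the order of mean FPKM among the 60 genes began with Ctnnb1 (199), Sfrp1 (79.0), Gsk3a (59.5), Tcf7 (41.3), Notum (39.7), Tcf7l1 (30.2) and Fzd10 (23.3). Tcf7 and Notum overlapped between libraries, as did the next neighbours Lrp5, Fzd5, Axin1 and Axin2 at 21.2 to 21.6 FPKM. In XEN cells the order began with Ctnnb1 (171), Porcn (101), Tcf7l1 (63.8), Gsk3a (61.3), Wnt11 (51.5) and Wls (38.5). Dkk1, Tcf7l2 and Wnt7b followed at 27.7 to 29.4 FPKM and overlapped between libraries. Sfrp1, Notum and Fzd10, at the top of the ES order, were at 0.0433, 0.150 and 0.02 FPKM in XEN, and Porcn, Wnt11 and Wls, at the top of the XEN order, were at 1.38, 0.700 and 3.29 FPKM in ES.

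Within most families a different gene led in each cell type. The 19 ligands summed to 3.62 ± 0.16 FPKM in ES and 83.6 ± 4.02 FPKM in XEN (mean ± SD, n = 3 libraries each), a ratio of 23.1. Wnt5b made up 45.6% ± 7.78 of the ES sum and Wnt11 61.6% ± 1.72 of the XEN sum, with Wnt7b at 33.2% ± 2.02. The 10 Fzd genes summed to 64.4 ± 1.4 FPKM in ES and 42.7 ± 0.642 FPKM in XEN. In ES this sum was 36.2% Fzd10, 33.3% Fzd5 and 23.5% Fzd7, and in XEN it was 58.1% Fzd7, 13.0% Fzd4, 12.7% Fzd2 and 8.88% Fzd6, with Fzd5 at 2.82%. The TCF/LEF sum was 75.2 ± 0.505 FPKM in ES, of which Tcf7 was 54.9%, and 99.3 ± 2.8 FPKM in XEN, of which Tcf7 was 6.68%, Tcf7l1 64.2% and Tcf7l2 29.1%. Lrp5 was 74.8% of the Lrp5 and Lrp6 sum in ES and 44.7% in XEN, and Gsk3a was 84.7% of the GSK3 sum in ES and 74.9% in XEN. The 8 Sfrp and Dkk genes of the rule, classed as antagonists by symbol, summed to 96.7 ± 2.18 FPKM in ES and 46.5 ± 0.463 FPKM in XEN. Dkk1 was 63.3% of this XEN sum, Dkkl1 33.8% and Dkk3 2.57%, and whether each acts as an antagonist here was not tested. Frzb, an Sfrp-family protein under another symbol and so outside the rule, turned that order: with it the sums were 96.8 ± 2.17 and 116 ± 1.69 FPKM, and Frzb was 59.8% of the XEN sum. These sums carry no test, and FPKM holds no correction for composition.

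**Figure D3:**
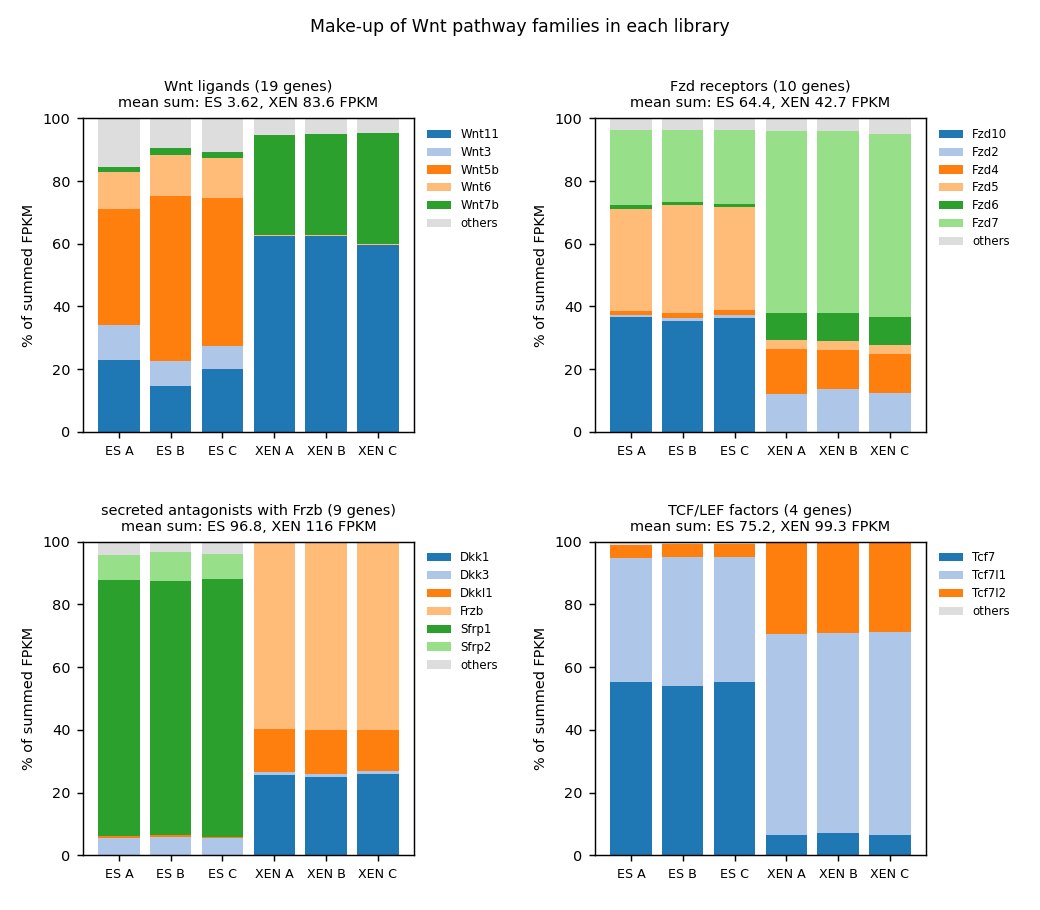
Stacked bars give each gene's percentage of its family's summed FPKM in each of the 6 libraries, for the ligands, the Fzd receptors, the secreted antagonists with Frzb and the TCF/LEF factors, with genes under 5% in every library pooled as others. Wnt11 and Wnt7b, Fzd7, Frzb and Dkk1, and Tcf7l1 and Tcf7l2 take most of the XEN bars, while Wnt5b, Fzd10 and Fzd5, Sfrp1, and Tcf7 lead the ES bars.

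Other genes of the pathway were followed through 5 lists of 87 symbols, of which 83 were listed and 70 tested. Of the 70, 40 were higher in XEN, 24 were lower and 6 did not pass, a share of 91.4% called beside the 88.7% of all tested genes. The test against 2-fold was passed by 40 (57.1%, beside 42.7% of all tested genes), 21 higher and 19 lower. The counts of each list below stand beside 42.0% higher and 46.7% lower among all tested genes. Among 7 tested extracellular modulators 5 were higher and 2 lower in XEN. Frzb, which binds Wnt ligands as Sfrp proteins do, had 4 counts over the ES libraries and stood at 201 to 206 CPM in XEN (log2 fold change 11.62 ± 0.15, edgeR adjusted p = 1.72e-26). Gpc4 and Gpc3, cell-surface proteoglycans that hold Wnt and other ligands, were at 21.6 ± 0.613 and 72.2 ± 3.18 CPM in ES and at 179.6 ± 8.96 and 287 ± 31.0 CPM in XEN (mean ± SD, n = 3).

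Co-receptors and planar polarity genes were divided, with 6 higher, 8 lower and 1 (Ror1) not passed of 15 tested. Ror2, a receptor kinase for Wnt5a, was at 18.7 ± 1.2 CPM in ES and 0.125 ± 0.176 CPM in XEN, and the polarity cadherin Celsr3 was at 18.1 ± 0.841 and 1.14 ± 0.231 CPM. The polarity genes Prickle1 (4.89 ± 0.227 to 35 ± 1.6 CPM) and Vangl1 (79.4 ± 3.71 to 172 ± 4.12 CPM) and the Wnt receptor Ryk (78.4 ± 3.79 to 148 ± 0.518 CPM) were higher in XEN. Of 19 tested cytoplasmic regulators, 12 were higher, 3 were lower and 4 did not pass. Tnks and Tnks2, which mark Axin for destruction, were at 51.4 ± 2.08 and 366 ± 8.08 CPM in ES and at 128 ± 18.3 and 923 ± 47.6 CPM in XEN. Csnk1a1, the kinase that primes β-catenin for GSK3, was lower in XEN (506 ± 11.8 to 242 ± 4.92 CPM), as was Ccdc88c, a Dishevelled-binding protein (55.2 ± 2.25 to 6.69 ± 0.883 CPM).

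Of 14 tested nuclear partners, 8 were higher, 5 were lower and Pygo2 did not pass. Ctnnbip1, which keeps β-catenin from TCF factors, was at 14.8 ± 0.741 CPM in ES and 160.2 ± 5.85 CPM in XEN, and the co-repressor Tle1 was at 18.7 ± 0.804 and 128 ± 1.90 CPM. Its relatives Tle4 (87.3 ± 0.904 to 29.5 ± 2.33 CPM) and Aes (151 ± 5.18 to 32.9 ± 1.52 CPM), a short member of this family, were lower in XEN. The targets outside the rule did not all go with Axin2, Notum and Sp5: 9 of 15 tested were higher in XEN and 6 lower (42.0% and 46.7% among all tested genes). T, the streak factor brachyury, stood at 6.76 to 8.90 CPM in ES and had 1 count over the XEN libraries, a ratio of 489 (95% exact counting interval 87.4 to 19346). Ccnd1, a cyclin of cell cycle entry, was at 157 ± 3.04 CPM in ES and 2.40 ± 0.111 CPM in XEN (log2 fold change -6.03 ± 0.04, edgeR adjusted p = 2.26e-25). Id2, a reported Wnt target in other tissues, was at 0.931 ± 0.022 CPM in ES and 115 ± 3.55 CPM in XEN (log2 fold change 6.94 ± 0.03, edgeR adjusted p = 5.32e-25). Sall4, a zinc-finger factor known in both cell types, was at 210.3 ± 4.20 CPM in ES and 504 ± 3.82 CPM in XEN. Streak and mesoderm markers, a list that holds T, summed to 29.6 to 32.2 CPM in ES and 10.9 to 12.9 CPM in XEN. Eomes, also in the trophoblast list, made up most of the ES sum (mean 22.2 CPM). T and Eomes were lower in XEN, Kdr was higher (means 0.590 and 4.47 CPM), and Mixl1, Mesp1 and Tbx6 were not tested. The part of streak and mesoderm cells in these values was not tested.

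**Figure D4:**
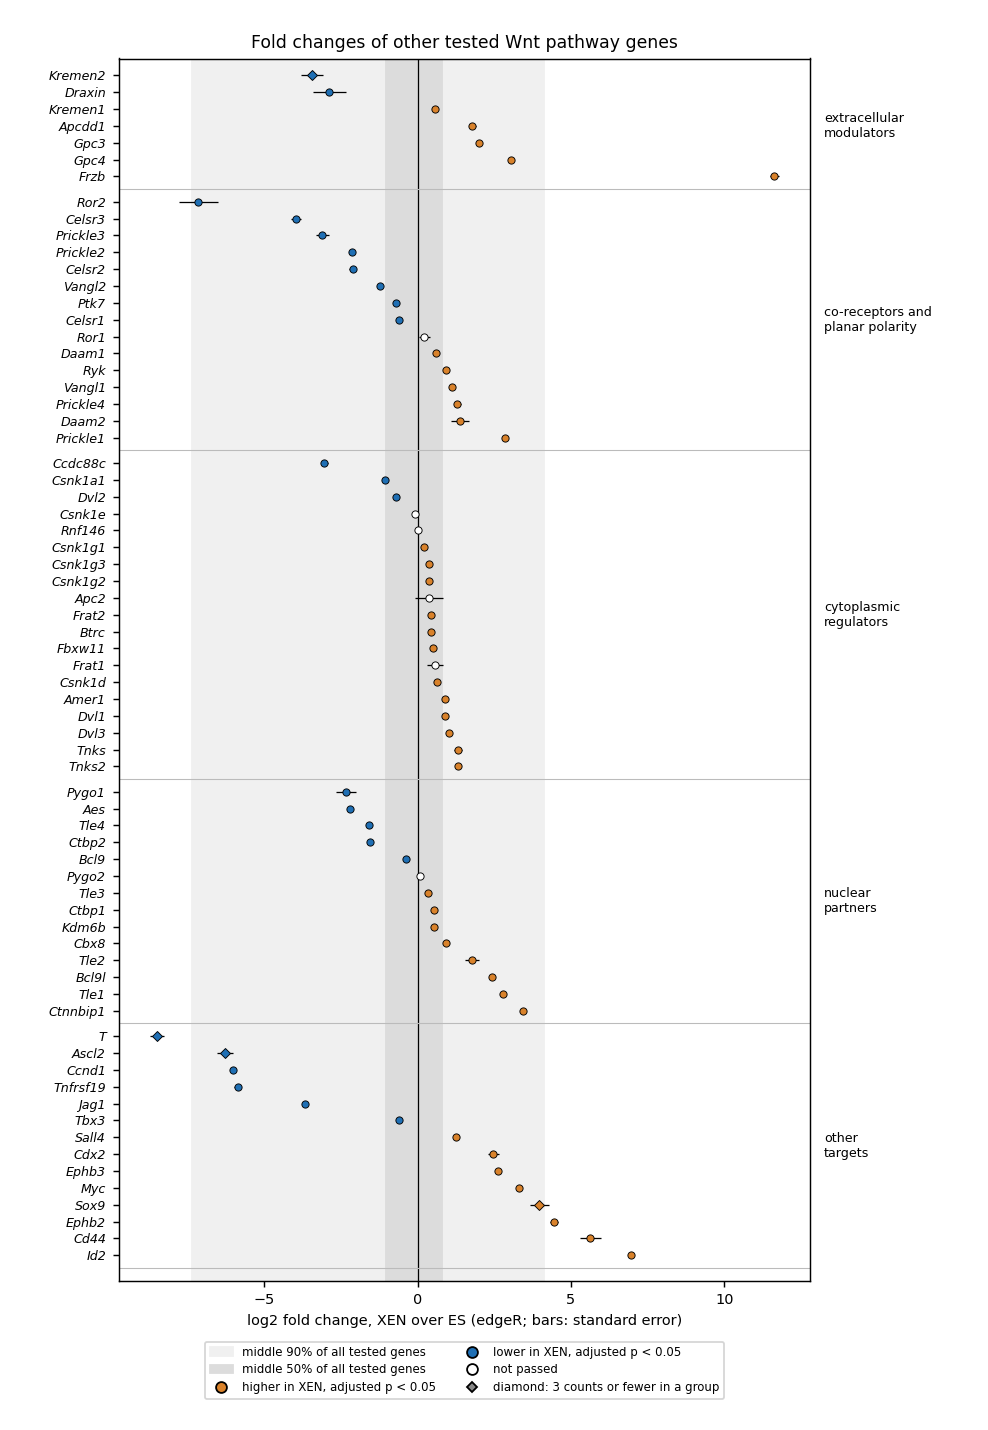
The log2 fold change, XEN over ES, of 69 of the 70 tested Wnt pathway genes outside the rule is plotted by list, with the standard error as a bar and the middle 50% and 90% of all tested genes as grey bands. The bars hold the spread between libraries only and can be too short at few counts. Frzb at 11.62 and Id2 at 6.94 lie farthest right, and T, Ror2 and Ccnd1 are among those farthest left. Of the 19 cytoplasmic regulators 4 differ past 2-fold (21.1%, beside 42.7% of all tested genes).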

How the data were processed

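Bulk RNA of 3 ES and 3 XEN libraries was sequenced on the BGISEQ-500 platform, per the labels' protocols, and groups and letters came from the sample titles. The authors deposited 1 table per library with an expected count, an FPKM and a length per gene. The submitters' processing notes name Bowtie2, RSEM, DESeq2 and build mm9; versions, strandedness and the role of each tool are not given in the sources used here, so reads of overlapping genes cannot be separated. Deposited FPKM values begin at 0.01, and genes not listed for a library were set to 0. For 10 members the tables list a transcript model of the authors' own.

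Expected counts were rounded and fitted with edgeR 4.0.16 in R 4.3.3 (filterByExpr, TMM, robust quasi-likelihood F test, group as the only term, Benjamini-Hochberg threshold 0.05 over 13581 tested genes; glmTreat against 2-fold). Standard errors combine the variance of log2 CPM (prior count 2) of the ES and the XEN libraries. They are not the error of the edgeR estimate and hold no separate term for counting error, so they can be too small at few counts. A fold against a group at 0 is a bound against 3 counts over that group, and 1 to 3 counts have an exact 95% interval of counting error only. Members are named with every value where the ES or XEN mean reached 5 CPM, the others by range or singly. In each list of other genes, up to 2 called genes per direction with the largest change and such a mean, and the most abundant by FPKM, were named; 1 gene chosen by this rule is not reported here. Members, lists and tests were chosen with earlier results of these data known. Alternatives were other scalings and filters, DESeq2 1.42.0, limma 3.58.1, a replicate block and each library left out. Sequences came from RefSeq promoters of GRCm38.p6, another build than that of the files.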

Additional observations from a re-analysis of the deposited data

How the results depend on the processing

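Across the alternatives, 20 to 23 members were higher and 17 to 23 lower in XEN, 27 to 37 passed 2-fold, and of the other pathway genes 36 to 43 were higher and 21 to 27 lower. Of the 544 fold changes of the 34 named members under an alternative, 530 kept their direction and side of the threshold, 10 kept the direction but lost the call and 4 turned. The turned ones were Axin1, at -0.10 with upper-quartile scaling (adjusted p = 0.0421), -0.09 with no composition scaling (0.0738) and -0.08 with limma on log2(FPKM + 1) and on log2(FPKM + 0.1) (0.156 and 0.157). The lost calls were those of Ctnnb1 and Gsk3a. Ctnnb1 lost its call with no count filter (0.1), with the replicate block (0.0669) and without ES library A or B or XEN library B or C, and Gsk3a lost its call under the same settings that turned Axin1 (0.215 to 0.528). These settings moved the median log2 fold change of all tested genes from -0.07 to -0.21, -0.20, -0.15 and -0.19, so small differences, such as the 0.17 of Gsk3a, depend on the scaling. Past 2-fold, among members tested in an edgeR alternative, the calls of Gsk3b (8 alternatives), Fzd9 (3) and Tcf7l1 (1) were lost and that of Lrp6 (3) was gained. With a mean of at least 1 CPM required, Lef1, Nkd1, Wnt3, Wnt5a, Wnt6 and Fzd9 were not tested, and Wnt6 also lost its call with DESeq2. The other 35 of the 43 called members kept call and direction under every alternative. With the replicate letter as a replicate block, 21 members were higher, 21 lower and 33 past 2-fold, and 40 and 24 of the other genes were higher and lower. Libraries of the same letter deviated together only weakly, with correlations of 0.033, 0.008 and 0.020, though each library correlated best with its own letter. That match was not tested and does not come from the design. Adding unnamed gene models to a member gave no value, since 0 of them shared an orthology term with one. Without the count filter 4 of the 14 untested members were called, 2 in each direction. Each of these had 7 or 8 counts in 1 group and 0 in the other. The share of all genes called under that setting was not counted, so this count is no result about the members. Depth limits these 14, and 3 libraries a group from possibly related cultures limit the rest.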
